A study of Mus musculus with 10 samples.

Results

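A set of 6 genes of epithelial type 2 and IL-1 family signalling was followed in tuft cells, rare chemosensory cells of mucosal and thymic epithelium. They were the cytokine genes Il25, Tslp, Il33 and Il18 and the IL-25 receptor genes Il17rb and Il17ra. They were found by symbol among the 43432 gene identifiers of the count tables, and all 6 were among the 19281 genes tested. The samples were 4 libraries of thymic tuft cells, 3 of small intestinal (SI) tuft cells (replicates 2 to 4) and 3 of SI epithelium (replicates 1 to 3). All cells were DAPI-, CD45- and EPCAM+. Tuft cells were taken as Flare25+ and SI epithelium as Flare25-, where Flare25 is a fluorescent reporter allele of Il25. Each library came from 1 naive male C57BL6.Il25(Flare25/Flare25) mouse of 12 weeks, so every group carried the reporter on both alleles. The authors left 1 SI tuft and 1 SI epithelium library out on quality grounds, per the series design text. Between 1350 and 1900 cells were sorted per thymic tuft library, 35000 to 36000 per SI tuft library and 52000 to 57000 per SI epithelium library. Thymic cells were released with Liberase TM and DNase I and enriched on Percoll, while intestinal cells came off in DTT and EDTA. Organ, dissociation and cell number therefore cannot be told apart between thymic and SI libraries.

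IL-25, TSLP and IL-33 are epithelial cytokines that act on type 2 innate lymphoid cells, T helper 2 cells and other leukocytes. IL-25, made by tuft cells in the intestine, signals through a complex of IL-17RB, which binds it, and IL-17RA, a subunit shared by several IL-17 cytokines. IL-33 and IL-18 belong to the IL-1 family: IL-33 is kept in the nucleus and released on damage, and IL-18 is made as a precursor that caspase-1 cuts.

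Libraries held 38659882 to 73574745 counts. Levels are given in CPM, counts relative to the library total, scaled by edgeR's trimmed mean of M values (TMM), and 3 counts in a library corresponded to 0.0434 to 0.0817 CPM. The summed level of 12 tuft cell markers was 7062 to 8297 CPM in thymic tuft, 27060 to 36590 CPM in SI tuft and 239 to 473.1 CPM in SI epithelium libraries. The thymic libraries also held 9 medullary thymic epithelium markers, 8 of them with counts in every thymic library (1374 to 1727 CPM summed, against 26.3 to 47.9 CPM in SI tuft and 41.7 to 57.8 CPM in SI epithelium). The SI tuft libraries held all 8 enterocyte markers (32680 to 36510 CPM summed), against 16950 to 18380 CPM in SI epithelium. Some libraries held counts in the proportions of another library. The largest estimates were 0.469% of the counts of thymic library 3 in SI epithelium library 1, 0.438% of thymic library 2 in SI epithelium library 2 and 0.631% of thymic library 1 in SI epithelium library 3. In the other direction, thymic libraries 1 to 3 held 0.860% to 0.959% of the counts of 1 SI epithelium library each. The counts of the 6 genes that this touches are given with each gene.

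The 6 genes fell into different patterns. Il17rb, Il17ra and Tslp were higher in both tuft populations than in SI epithelium, Il33 was lower in both, and Il18 was at 24 counts or fewer in each thymic tuft library and higher in both SI populations. Of the 5 genes whose comparison with SI epithelium was not set by the reporter, 3 were higher and 1 lower in SI tuft cells. For all 19281 genes in that comparison, 10.9% were called higher and 11.4% lower at an adjusted p below 0.05 in edgeR's quasi-likelihood test. In thymic tuft cells 3 of the 5 were higher than in SI epithelium and 2 lower, where 28.6% of all genes were called higher and 22.3% lower. Between thymic and SI tuft cells, 0 of the 6 genes were higher and 2 were lower, where 28.5% and 23.1% of all genes were. In either direction 4 of 5, 5 of 5 and 2 of 6 genes were called for SI tuft over SI epithelium, thymic tuft over SI epithelium and thymic over SI tuft cells, where 22.3%, 50.9% and 51.6% of all genes were. Overlap between libraries was judged in CPM. Libraries did not overlap for 4 higher genes and 1 lower gene of the 5 in SI tuft cells against SI epithelium (22.8% and 28.4% of all genes). They did not overlap for 3 higher and 2 lower genes of the 5 in thymic tuft cells against SI epithelium (28.1% and 27.4% of all genes), and for 0 higher and 3 lower genes of the 6 in thymic against SI tuft cells (26.3% and 24.9% of all genes). The 3 comparisons share libraries and are not independent of one another. The median log2 fold change of the tested genes among the 6 was 1.68 for SI tuft over SI epithelium, 1.35 for thymic tuft over SI epithelium and -0.80 for thymic over SI tuft cells. The medians over all genes were -0.10, 0.15 and 0.12.

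**Figure D1:**
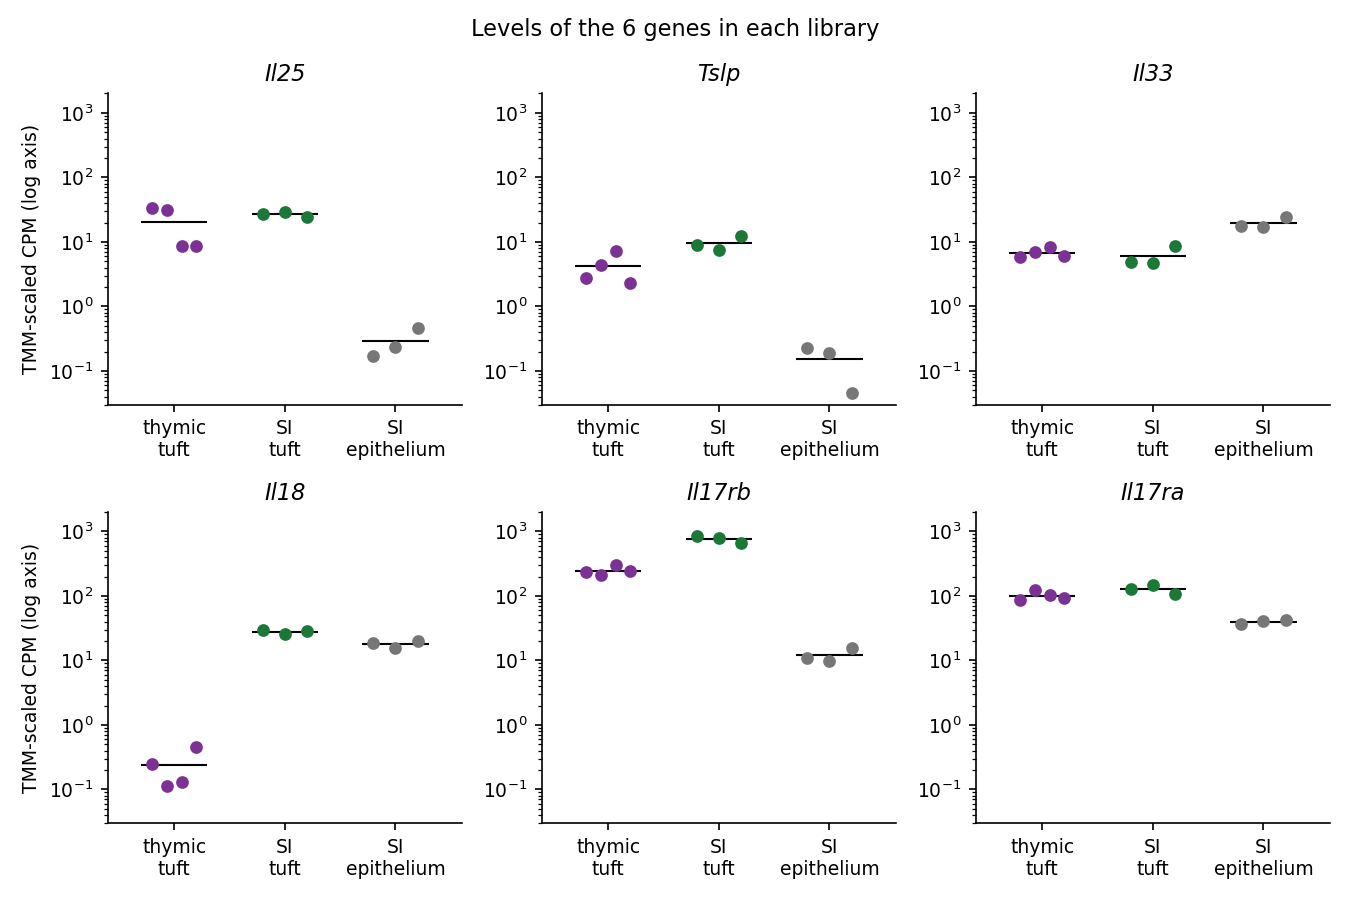
Level of the 6 genes in each library, in TMM-scaled CPM on a log axis; points are libraries (4 thymic tuft, 3 SI tuft, 3 SI epithelium) and lines are group means. Il18 lies at 0.113 to 0.456 CPM in thymic tuft cells, and Il17rb at 651 to 853 CPM in SI tuft cells, above every library of the other groups.

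Il25 encodes the cytokine whose reporter was used for the sort, so its difference between reporter-positive and reporter-negative cells was chosen and is given without a test. Il25 lies on mouse chromosome 14 at 54932695 to 54935837 of GRCm38, on the plus strand. Il25 was at 33.3, 31.5, 8.60 and 8.71 CPM in thymic tuft libraries 1 to 4, at 26.8, 29.3 and 23.9 CPM in SI tuft libraries 2 to 4, and at 0.169, 0.234 and 0.469 CPM in SI epithelium libraries 1 to 3. Every tuft library was above every SI epithelium library, as the gate required. The fitted log2 fold changes were 6.11 for thymic tuft and 6.49 for SI tuft cells over SI epithelium.

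Thymic tuft libraries 3 and 4 lay below all SI tuft libraries, and thymic libraries 1 and 2 above them. Thymic libraries 1 and 2 came from 1900 and 1800 sorted cells, and libraries 3 and 4 from 1400 and 1350. The part of cell number in these levels was not tested. The mean was 20.5 ± 13.7 CPM in thymic tuft cells (SD, n = 4) and 26.7 ± 2.67 CPM in SI tuft cells (SD, n = 3). The difference between these 2 reporter-positive populations was not called by edgeR (log2 fold change -0.38, SE 0.51, adjusted p = 0.562), and its sign turned to 0.54 when libraries were scaled by their totals only. Over the alternatives the adjusted p was 0.255 to 0.874.

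The SI epithelium libraries held 9, 11 and 31 Il25 counts. Counts shared from thymic libraries were estimated at 8.16, 11.0 and 14.9, which is 90.7%, 99.7% and 48.1% of them. With these removed, 1, 0 and 16 counts were left in SI epithelium libraries 1 to 3. The fitted log2 fold change over SI epithelium was then 7.83 for thymic tuft and 8.08 for SI tuft cells. Libraries 1 and 2 lay below 3 counts, so these sizes are poorly measured.

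Il17rb encodes the IL-25-binding receptor subunit and was the most abundant of the 6 genes in both tuft populations. It lies on chromosome 14 at 29996135 to 30008896, on the minus strand. Il17rb was at 235, 213, 298 and 242 CPM in thymic tuft libraries 1 to 4, at 853, 797 and 651 CPM in SI tuft libraries 2 to 4, and at 10.8, 9.70 and 15.4 CPM in SI epithelium libraries 1 to 3. The 3 groups did not overlap, with SI tuft cells highest and SI epithelium lowest.

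Il17rb was 20.6-fold higher in thymic tuft cells than in SI epithelium (log2 fold change 4.37, SE 0.22, edgeR adjusted p = 3e-08). It was 64.1-fold higher in SI tuft cells than in the SI epithelium (log2 fold change 6.00, SE 0.25, edgeR adjusted p = 9.37e-09). Between the tuft populations it was lower in thymic cells (log2 fold change -1.63, SE 0.18, edgeR adjusted p = 1.58e-05). That last size depended on the scaling: with library totals only it was -0.73 (adjusted p = 0.00474), and over the alternatives the adjusted p was 1.14e-10 to 0.00474. In TPM, a scale that corrects for exonic length and fixes each library's total, Il17rb was at 300.3 ± 40.2 in thymic tuft cells (SD, n = 4) and 316 ± 48.9 in SI tuft cells (SD, n = 3). The ranges of these TPM values, 259 to 353 and 279 to 372, overlapped, whereas the CPM values did not. Mitochondrial genes held 4.38% to 5.97% of the counts in thymic tuft, 24.05% to 33.54% in SI tuft and 18.57% to 23.7% in SI epithelium libraries. TPM and library totals include these counts, and their part in the smaller Il17rb difference was not tested.

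The tuft marker sum of the same libraries, given above, was also lower in thymic than in SI tuft libraries. In bulk samples fewer cells of a type and less RNA per cell cannot be told apart. Of the 12 tuft markers, 10 were lower and 1 higher in thymic than in SI tuft cells. In SI epithelium Il17rb stood at 1.40%, 1.26% and 2.00% of its mean in SI tuft cells, and the median tuft marker at 1.07%, 1.03% and 1.52%. Between 13.3% and 24.4% of the Il17rb counts of SI epithelium were estimated to be shared from thymic libraries. Il17rb also shares 141 exonic bases, 3.80% of its exonic length, with Actr8 on the other strand, which encodes a chromatin remodelling subunit. The libraries mark no strand, and Actr8 had 1806 to 2396 counts in thymic tuft, 1849 to 2617 in SI tuft and 954 to 1582 in SI epithelium libraries. The part of Actr8 reads in the Il17rb counts was not tested.

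Il17ra encodes the receptor subunit shared by IL-25, IL-17A, IL-17F and IL-17C. It lies on chromosome 6 at 120463247 to 120487559, on the plus strand. Il17ra was at 86.0, 123, 105 and 91.5 CPM in thymic tuft libraries 1 to 4, at 127, 146 and 109 CPM in SI tuft libraries 2 to 4, and at 36.4, 41.4 and 41.6 CPM in SI epithelium libraries 1 to 3. In CPM the tuft populations overlapped, and both lay above SI epithelium. In TPM thymic tuft libraries (46.0 to 64.0) lay above SI tuft libraries (19.0 to 29.2).

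Il17ra was 2.55-fold higher in thymic tuft cells (log2 fold change 1.35, SE 0.18, edgeR adjusted p = 5.28e-05) and 3.20-fold higher in SI tuft cells (log2 fold change 1.68, SE 0.19, edgeR adjusted p = 4.23e-05) than in SI epithelium. Thymic and SI tuft cells were not called different (log2 fold change -0.33, SE 0.17, edgeR adjusted p = 0.121). That value turned to 0.56 (adjusted p = 0.0188) with library totals only, and was -0.42 (adjusted p = 0.0481) without thymic library 2. Over the alternatives the adjusted p was 0.0188 to 0.859. Unlike Il17rb, Il17ra in SI epithelium stood at 28.6% to 32.7% of its mean in SI tuft cells, and at most 2.70% of those counts were estimated to be shared.

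**Figure D2:**
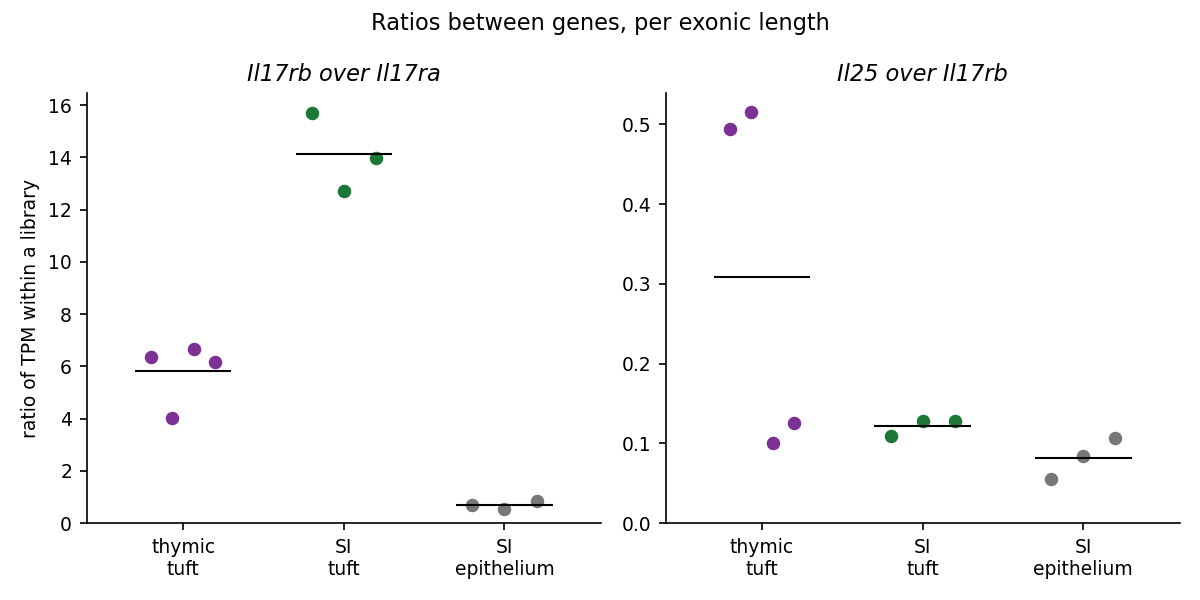
Ratios of TPM between 2 genes in each library, on linear axes from 0; points are libraries and lines are group means. Il17rb over Il17ra lies at 4.04 to 6.66 in thymic tuft cells, 12.7 to 15.7 in SI tuft cells and 0.548 to 0.863 in SI epithelium.

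Within a library, Il17rb and Il17ra can be compared per exonic length without any scaling between libraries. The ratio of Il17rb to Il17ra in TPM was 5.81 ± 1.20 in thymic tuft cells (SD, n = 4), 14.1 ± 1.49 in SI tuft cells (SD, n = 3) and 0.701 ± 0.158 in SI epithelium (SD, n = 3). No library of one group reached the range of another, as the plot of ratios shows, and no test was run on the ratios. The ratio of Il25 to Il17rb was 0.495, 0.516, 0.100 and 0.126 in thymic tuft libraries 1 to 4 and 0.110, 0.128 and 0.128 in SI tuft libraries 2 to 4. Thymic libraries 3 and 4 were thus within or near the SI tuft range, and libraries 1 and 2 above it.

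The other IL-17 receptor genes differed in pattern from these subunits. Il17re, which encodes the IL-17C-binding subunit, was at 14.9, 20.3, 28.2 and 37.9 CPM in thymic tuft libraries 1 to 4, at 0.462, 0.762 and 0.792 CPM in SI tuft libraries 2 to 4, and at 0.546, 0.998 and 1.10 CPM in SI epithelium libraries 1 to 3. Thymic tuft libraries lay above every SI library, and the SI groups overlapped. Il17re was higher in thymic tuft cells than in SI tuft cells (log2 fold change 5.23, SE 0.52, edgeR adjusted p = 5.17e-06) and than in SI epithelium (4.84, SE 0.51, edgeR adjusted p = 7.88e-06). In thymic tuft cells its TPM was 0.377 ± 0.172 of that of Il17ra (SD, n = 4).

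Il17rc encodes the partner of IL-17RA in the receptor for IL-17A and IL-17F. Il17rc averaged 18.9 ± 6.11 CPM in thymic tuft (SD, n = 4), 28.0 ± 10.8 CPM in SI tuft (SD, n = 3) and 51.5 ± 3.34 CPM in SI epithelium libraries (SD, n = 3). Only thymic tuft cells against SI epithelium was called (log2 fold change -1.45, edgeR adjusted p = 0.00248; with library totals only -0.84, adjusted p = 0.0485, and 0.00122 to 0.0485 over the alternatives). For SI tuft cells against SI epithelium the value of -0.88 (adjusted p = 0.0889) was called without thymic library 1 (-0.88, adjusted p = 0.0333) or without SI tuft library 4 (-1.23, adjusted p = 0.0409). The ratio of Il17rc to Il17ra in TPM was 0.601 ± 0.168 in thymic tuft (SD, n = 4), 0.745 ± 0.392 in SI tuft and 4.21 ± 0.240 in SI epithelium libraries (SD, n = 3 each). Il17rd, which encodes a further receptor of the family, averaged 1.30 ± 2.33, 1.38 ± 0.888 and 5.08 ± 1.14 CPM in thymic tuft, SI tuft and SI epithelium libraries, and was called in no comparison over all 10 libraries. Thymic library 1 held 4.79 CPM of Il17rd and the other thymic libraries 0.019 to 0.301 CPM. Without thymic library 1, Il17rd was lower in thymic tuft cells than in SI epithelium (log2 fold change -5.18, edgeR adjusted p = 0.00191) and than in SI tuft cells (-3.31, edgeR adjusted p = 0.0147).

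**Figure D3:**
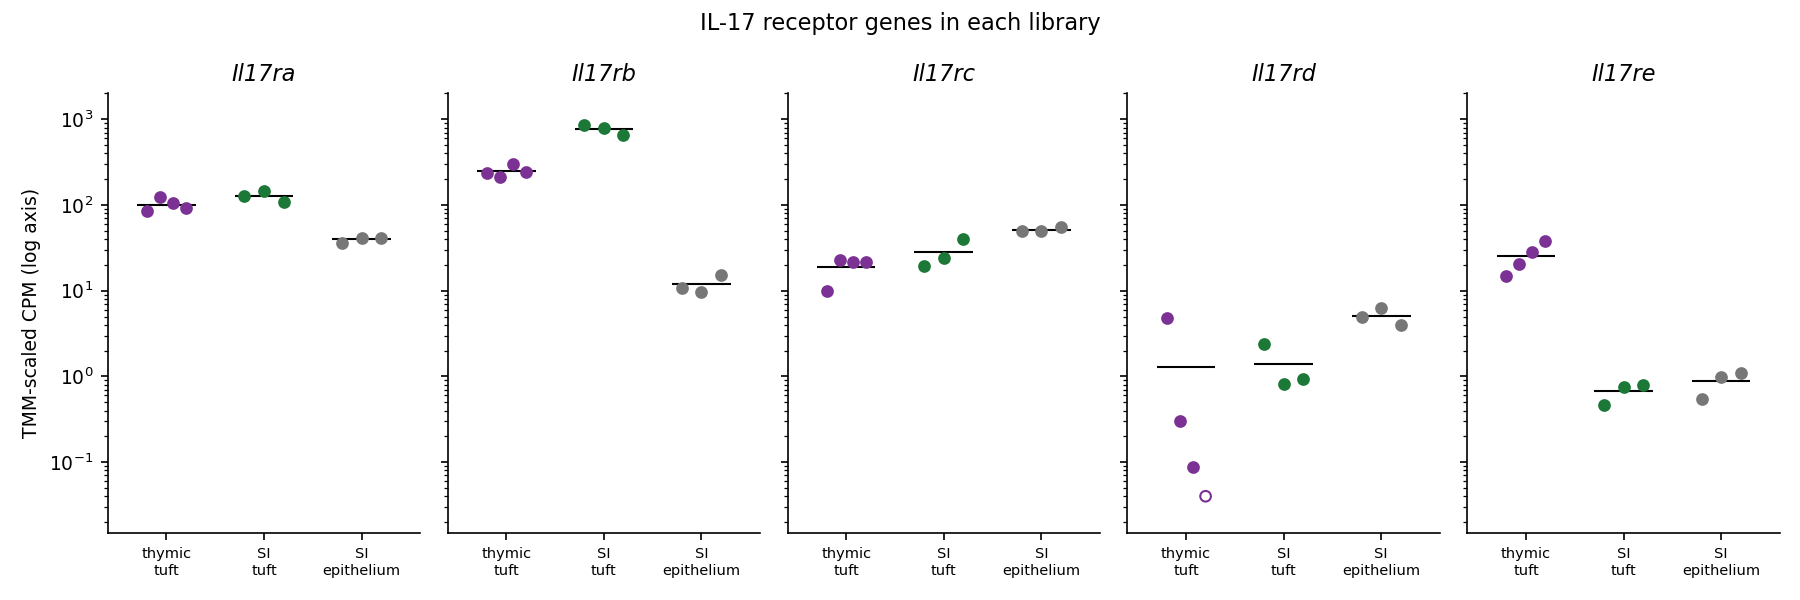
Levels of the 5 IL-17 receptor genes in each library, in TMM-scaled CPM on a log axis; points are libraries, lines are group means, and open points are libraries below 0.04 CPM, drawn at that value. Il17re lies at 14.9 to 37.9 CPM in thymic tuft cells and at 1.10 CPM or less in the SI libraries.

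Of the 5 receptor genes, 2 were higher and 0 lower in SI tuft cells than in the SI epithelium, 1 higher and 1 lower in thymic than in SI tuft cells, and 3 higher and 1 lower in thymic tuft cells than in SI epithelium. Their median log2 fold changes were -0.40, -0.33 and 1.35. In the first comparison 10.9% of all genes were higher and 11.4% lower, in the second 28.5% and 23.1%, in the third 28.6% and 22.3%. In the first, 2 receptor genes were lower in a fit of the 2 groups alone and with the replicate block. Among the other ligand genes of the family, Il17c, the gene of an epithelial cytokine that binds IL-17RE, averaged 2.28 ± 1.54 CPM in thymic tuft (SD, n = 4), 0.221 ± 0.316 CPM in SI tuft and 0.0922 ± 0.105 CPM in SI epithelium cells (SD, n = 3 each). It was called only for thymic tuft cells over SI epithelium (log2 fold change 4.61, edgeR adjusted p = 0.0228), and not without SI epithelium library 1 (4.13, adjusted p = 0.0921) or library 3 (4.28, adjusted p = 0.0948). Thymic over SI tuft cells (3.35, adjusted p = 0.064) was called without SI tuft library 2 (5.75, adjusted p = 0.0231). Il17d averaged 1.20, 0.723 and 0.668 CPM in the same order of groups and was not called. Il17a had no count in any library, and Il17f and Il17b were too low to be tested (at most 0.0303 and 0.570 CPM).

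**Figure D4:**
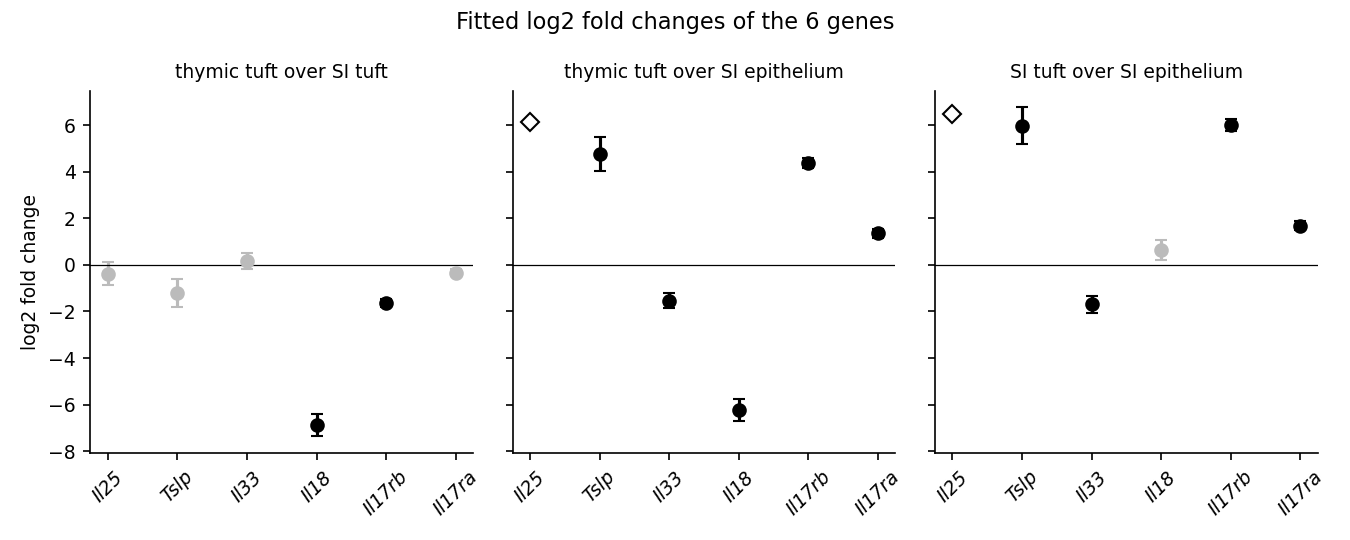
Fitted log2 fold changes of the 6 genes with their standard errors from edgeR, in 3 comparisons; black points passed an adjusted p of 0.05, grey points did not, and open diamonds mark Il25 where the sort set the difference and no test was made. Il18 is the lowest point of both comparisons with thymic tuft cells, at -6.88 over SI tuft cells and -6.24 over SI epithelium.

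Tslp encodes thymic stromal lymphopoietin, a cytokine that acts on dendritic cells and type 2 lymphocytes. It lies on chromosome 18 at 32815383 to 32819797, on the plus strand. Tslp was at 2.78, 4.45, 7.15 and 2.30 CPM in thymic tuft libraries 1 to 4, at 9.11, 7.54 and 12.5 CPM in SI tuft libraries 2 to 4, and at 0.226, 0.191 and 0.0454 CPM in SI epithelium libraries 1 to 3. In CPM the 3 groups did not overlap, with SI tuft cells highest. In TPM thymic tuft (7.52 to 23.6, mean 14.05) and SI tuft libraries (8.885 to 14.86, mean 11.18) overlapped, with the higher mean in thymic tuft cells.

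Tslp was 27.0-fold higher in thymic tuft cells (log2 fold change 4.75, SE 0.75, edgeR adjusted p = 0.000227) and 62.8-fold higher in SI tuft cells (log2 fold change 5.97, SE 0.80, edgeR adjusted p = 0.000195) than in SI epithelium. SI epithelium held only 12, 9 and 3 Tslp counts, of which 24.4%, 18.7% and 56.1% were estimated to be shared from thymic libraries. Although the tuft libraries did not overlap in CPM, thymic over SI tuft cells was not called (log2 fold change -1.22, SE 0.59, edgeR adjusted p = 0.104). Libraries lay lower without overlap in that comparison for 24.9% of all genes. Without thymic library 3 the value was -1.59 (adjusted p = 0.0488), and with library totals only it was -0.32 (adjusted p = 0.675), the ends of the range over the alternatives. Medullary thymic epithelium markers, given above, and fibroblast and endothelial markers (27.4 to 148 CPM summed over 9 genes) were present in thymic libraries, against 3.77 to 4.68 CPM of these stromal markers in SI tuft libraries. Their part in the thymic Tslp level was not tested.

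Il33 was the 1 gene of the 6 that was lower in both tuft populations than in SI epithelium. It lies on chromosome 19 at 29925114 to 29960718, on the plus strand. Il33 was at 5.89, 7.03, 8.25 and 6.06 CPM in thymic tuft libraries 1 to 4, at 4.91, 4.65 and 8.61 CPM in SI tuft libraries 2 to 4, and at 17.7, 17.2 and 24.1 CPM in SI epithelium libraries 1 to 3. In CPM the tuft populations overlapped, and every SI epithelium library was above every tuft library. In TPM thymic tuft libraries (9.15 to 12.5) overlapped with SI epithelium libraries (11.0 to 15.9). They also lay above SI tuft libraries (2.21 to 4.73) in TPM.

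The log2 fold change over SI epithelium was -1.53 for thymic tuft cells (SE 0.34, edgeR adjusted p = 0.00277) and -1.70 for SI tuft cells (SE 0.38, edgeR adjusted p = 0.00636). The thymic value was -0.92 with library totals only (adjusted p = 0.0493), and its adjusted p over the alternatives was 1.73e-05 to 0.0493. Thymic and SI tuft cells were not called different (0.17, SE 0.34, edgeR adjusted p = 0.710). With library totals only that value was 1.06 (adjusted p = 0.0293), and without SI tuft library 3 it was -8.91e-05 (adjusted p = 1), the range over the alternatives being 0.0293 to 1. At most 0.408% of the Il33 counts of SI epithelium were estimated to be shared from thymic libraries. The sum of 10 goblet, Paneth and enteroendocrine markers was 1684 to 2961 CPM in thymic tuft, 2394 to 3088 CPM in SI tuft and 105900 to 118300 CPM in SI epithelium libraries. Its part in the Il33 difference was not tested. The gene whose profile over the 10 libraries was most like that of Il33 was Lyz1, a Paneth cell lysozyme, with Pearson r = 0.967 on log2(CPM + 1).

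Il18 separated the organs. It lies on chromosome 9 at 50554827 to 50581840, on the plus strand. Il18 was at 0.247, 0.113, 0.130 and 0.456 CPM in thymic tuft libraries 1 to 4, at 29.5, 25.4 and 28.6 CPM in SI tuft libraries 2 to 4, and at 18.3, 15.3 and 20.2 CPM in SI epithelium libraries 1 to 3. In CPM the groups did not overlap, and thymic tuft cells held only 15, 6, 9 and 24 counts.

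Il18 was lower in thymic tuft cells than in SI tuft cells (log2 fold change -6.88, SE 0.49, edgeR adjusted p = 3.19e-07) and than in SI epithelium (-6.24, SE 0.48, edgeR adjusted p = 5.87e-07). The 8 enterocyte markers summed to 264.9 to 549.5 CPM in thymic tuft libraries, and all 8 were called lower there than in either SI group (median log2 fold change -6.79 against SI tuft cells and -5.88 against SI epithelium). Their part in the Il18 difference was not tested. Counts shared from SI epithelium libraries were estimated at 11.5, 6.92 and 8.94 in thymic libraries 1 to 3, where 15, 6 and 9 were counted. For thymic library 4, with 24 counts, no share was estimated. Bco2, a carotenoid oxygenase gene on the other strand whose span overlaps that of Il18 with 0 shared exonic bases, had 12 to 75 counts in thymic tuft, 1226 to 1503 in SI tuft and 1267 to 1405 in SI epithelium libraries.

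In CPM, SI tuft libraries were all above SI epithelium libraries for Il18, as they were for 22.8% of all genes. In TPM the ranges overlapped, at 37.19 to 44.01 in SI tuft and 27.51 to 37.39 in SI epithelium libraries. The difference was not called over all 10 libraries (log2 fold change 0.63, SE 0.42, edgeR adjusted p = 0.324). In a fit of the 2 SI groups alone it was 0.64 with an adjusted p of 0.0138, and over the alternatives the adjusted p was 0.0138 to 0.688. Enterocyte markers were higher in SI tuft libraries too (sums given above, median log2 fold change 0.83 over 8 genes, of which 2 were called higher). Their part in the Il18 level was not tested. Among the genes whose profiles were most like that of Il18 were Slc5a1, Slc5a11, Slc47a1 and Apob (Pearson r 0.997 to 0.999 over 10 libraries). Slc5a1 encodes the intestinal glucose transporter SGLT1, and Apob the lipoprotein of chylomicrons. Slc5a1 averaged 27.8 CPM in thymic and 965 CPM in SI tuft cells.

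The 250 bases upstream of the RefSeq start (GRCm38.p6) are shown for Il18 and Il17rb, which of the 6 genes differed most between thymic and SI tuft cells, and for the inner of the 2 Il33 starts. They were searched for the octamer ATGCAAAT (reverse complement ATTTGCAT), the motif of POU-domain factors, a family that includes the tuft cell factor POU2F3. Sequences read 5′ to 3′ on the strand of the gene, the last base lies next to the start, and capitals mark the octamer on either strand. The windows are chr9:50554450-50554699 (+) for Il18, chr14:30008897-30009146 (-) for Il17rb and chr19:29945540-29945789 (+) for Il33.
Il18: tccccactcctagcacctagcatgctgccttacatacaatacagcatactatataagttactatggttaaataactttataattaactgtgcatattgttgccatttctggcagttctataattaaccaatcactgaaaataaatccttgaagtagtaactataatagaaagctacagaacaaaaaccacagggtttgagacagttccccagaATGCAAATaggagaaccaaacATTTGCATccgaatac
Il17rb: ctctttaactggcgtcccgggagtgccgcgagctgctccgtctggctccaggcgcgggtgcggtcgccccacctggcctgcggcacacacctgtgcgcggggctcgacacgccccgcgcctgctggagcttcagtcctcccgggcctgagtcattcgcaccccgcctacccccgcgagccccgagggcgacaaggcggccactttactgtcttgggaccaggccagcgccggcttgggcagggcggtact
Il33, inner start: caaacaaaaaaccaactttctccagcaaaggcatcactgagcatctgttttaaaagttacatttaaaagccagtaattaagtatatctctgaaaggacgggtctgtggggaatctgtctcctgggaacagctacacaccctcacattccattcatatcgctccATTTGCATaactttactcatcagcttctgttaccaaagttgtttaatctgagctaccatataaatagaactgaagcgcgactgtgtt

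Il18 held 2 octamers, beginning 37 and 16 bases upstream of the start, the inner Il33 start held 1, beginning 87 bases upstream, and Il17rb held 0. The outer Il33 start held 0. Among 32851 RefSeq promoter windows of the same length, 1.60% held at least 1 octamer and 0.0974% at least 2. The letters TATAAA or their reverse complement stood once in the windows of Il18 and of each Il33 start and not in that of Il17rb, and in 12.4% of all windows. The Il17rb window was 72% G and C with 27 CpG, against 35.6% and 1 for Il18, 39.6% and 4 for the inner Il33 start, and medians of 52.4% and 6 over all windows. These matches describe the letters of the windows, and no binding was measured here.

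Within each population the 6 genes had a different order per exonic length. In thymic tuft cells the mean TPM was 300.3 for Il17rb, 88.9 for Il25, 52.7 for Il17ra, 14.0 for Tslp, 10.6 for Il33 and 1.03 for Il18. There the ranges of Il25 (35.5 to 151) and Il17ra (46.0 to 64.0) overlapped, as did those of Tslp and Il33. In SI tuft cells the mean TPM was 316 for Il17rb, 41.2 for Il18, 38.7 for Il25, 22.7 for Il17ra, 11.2 for Tslp and 3.24 for Il33, and the ranges of Il18 (37.2 to 44.0) and Il25 (32.7 to 47.6) overlapped. In SI epithelium the mean TPM was 32.3 for Il18, 12.7 for Il33, 8.52 for Il17ra, 5.99 for Il17rb, 0.511 for Il25 and 0.212 for Tslp, with overlap between Il17ra and Il17rb and between Il25 and Tslp. Il17rb stood above 98.3% of protein-coding genes in thymic tuft cells and 99.1% in SI tuft cells, against 64.6% in SI epithelium.

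Among the receptors and binding proteins of IL-33, TSLP and IL-18, more genes were higher than lower in thymic tuft libraries. Of 8 genes, 5 were higher and 1 lower in thymic than in SI tuft cells, 4 higher and 0 lower in thymic tuft cells than in SI epithelium, and 1 higher and 2 lower in SI tuft cells than in the SI epithelium. Their median log2 fold changes were 2.83, 1.95 and 0.16, and the first was 2.53 with Il18rap at its lower bound. Of all genes, 28.5% were higher and 23.1% lower in thymic than in SI tuft cells. The shares were 28.6% and 22.3% in thymic tuft cells against SI epithelium, and 10.9% and 11.4% in SI tuft cells against it. With 10 CPM in 3 libraries, which tested fewer genes, 2 of the receptor and binding protein genes were higher in each of the 2 thymic comparisons. The 9 markers of B cells, myeloid cells and dendritic cells summed to 226.3 to 279.8 CPM in thymic tuft, 15.97 to 50.81 CPM in SI tuft and 20.38 to 25.58 CPM in SI epithelium libraries. Lyz2, a myeloid marker, made up 168.7 to 209.8 CPM of the thymic sum. Of the 8 markers tested, 5 were higher and 1, Itgax, lower in thymic than in SI tuft cells. Against SI epithelium 6 were higher and 0 lower. The part of such cells in these receptor levels was not tested. Il18r1, which encodes the IL-18-binding receptor chain, was at 91.5, 55.7, 90.6 and 80.5 CPM in thymic tuft libraries 1 to 4, at 1.58, 0.435 and 0.0792 CPM in SI tuft libraries 2 to 4, and at 4.65, 6.20 and 6.39 CPM in SI epithelium libraries 1 to 3. The groups did not overlap, and the order was the reverse of that of Il18 in thymic and SI tuft cells. Il18r1 was higher in thymic than in SI tuft cells (log2 fold change 6.81, edgeR adjusted p = 8.42e-06), higher in thymic tuft cells than in SI epithelium (3.79, adjusted p = 0.000245) and lower in SI tuft cells than in the SI epithelium (-3.02, adjusted p = 0.00441).

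Il18rap, the second chain of that receptor, averaged 1.38 ± 1.65 CPM in thymic tuft cells (SD, n = 4) and 0.428 ± 0.149 CPM in SI epithelium (SD, n = 3) and had no count in SI tuft cells. It was called higher in thymic than in SI tuft cells (edgeR adjusted p = 0.00277), by at least 16.9-fold when 3 counts per library are taken as the limit in SI tuft cells. With the same limit it was at least 5.24-fold lower in SI tuft cells than in the SI epithelium (edgeR adjusted p = 0.0175), a call that held in 7 of the 10 fits that left out 1 library. Il18bp, which encodes a secreted protein that binds IL-18, averaged 74.3 ± 14.1 CPM in thymic tuft (SD, n = 4), 41.4 ± 19.2 CPM in SI tuft and 15.9 ± 1.93 CPM in SI epithelium cells (SD, n = 3 each). Il18bp was higher in thymic tuft cells (log2 fold change 2.22, edgeR adjusted p = 6.52e-05) and in SI tuft cells (1.38, edgeR adjusted p = 0.00586) than in SI epithelium. Between thymic and SI tuft cells it was also called (0.84, adjusted p = 0.0254), but not without SI tuft library 3 (0.69, adjusted p = 0.109) or library 4 (0.62, adjusted p = 0.115), and it was 1.27 (adjusted p = 0.00193) without library 2. Sigirr, the gene of an inhibitory receptor of the IL-1 receptor family, was lower in thymic tuft cells at 13.5 ± 7.53 CPM (SD, n = 4) than in SI tuft cells at 39.6 ± 9.76 CPM (SD, n = 3; log2 fold change -1.56, edgeR adjusted p = 0.00928), a call lost with library totals only (-0.65, adjusted p = 0.234).

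Il1rl1, which encodes the IL-33 receptor ST2, was at 7.62, 4.50, 2.53 and 12.5 CPM in thymic tuft libraries 1 to 4, against at most 0.163 CPM in SI tuft and 0.0637 CPM in SI epithelium libraries. Il7r, which encodes a chain shared by the TSLP and IL-7 receptors, was at 3.27, 4.90, 6.00 and 0.380 CPM in thymic tuft libraries, against at most 0.396 CPM in SI tuft and 0.0212 CPM in SI epithelium libraries. Il1rl1 was higher in thymic tuft cells than in SI tuft cells (log2 fold change 6.93, edgeR adjusted p = 0.00176) and than in SI epithelium (7.68, edgeR adjusted p = 0.00111). These values were 11.50 without SI tuft library 3 (adjusted p = 0.000964) and 11.52 with shared counts removed (adjusted p = 0.000816). At 11.50 and 11.52 the SI group would lie below the level of 3 counts per library, so these sizes are not measured folds. For Il7r the values over SI tuft cells and SI epithelium were 4.68 (adjusted p = 0.0199) and 7.92 (adjusted p = 0.00313). The Il7r call against SI tuft cells was lost without SI tuft library 2 (4.17, adjusted p = 0.0734) or library 3 (4.09, adjusted p = 0.055). Without library 4 the value was 7.92 (adjusted p = 0.00554). At 7.92 the SI group would again lie below 3 counts per library. These genes also belong to a list of T cell and group 2 innate lymphoid cell markers whose 12 genes summed to 210 to 330 CPM in thymic tuft, 23.3 to 34.5 CPM in SI tuft and 3.63 to 7.62 CPM in SI epithelium libraries. Il13 made up 168 to 293 CPM of the thymic sum, and Cd3e was at 0.378 to 4.90 CPM there, against 9.31 to 16.1 CPM in SI tuft libraries. The part of such cells in the Il1rl1 and Il7r levels was not tested. Il1rap, the shared accessory chain of IL-1 and IL-33 receptors, averaged 9.15, 5.12 and 8.54 CPM in thymic tuft, SI tuft and SI epithelium libraries, and Crlf2, the TSLP-binding chain, 1.17, 0.592 and 0.798 CPM, and neither was called.

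**Figure D5:**
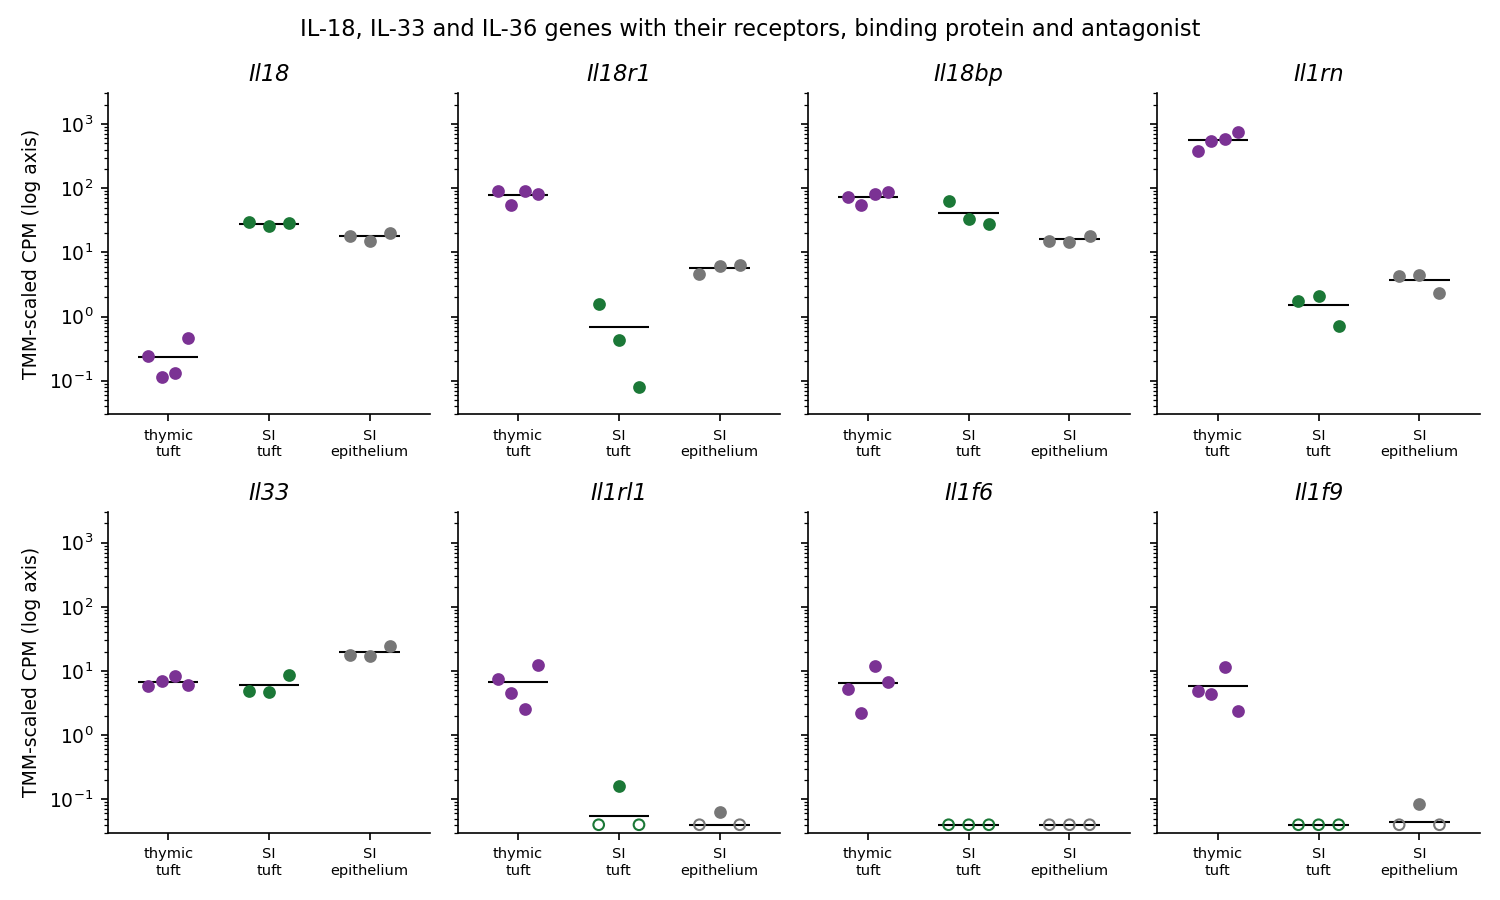
Levels of Il18, Il33 and related receptor, binding protein, antagonist and IL-36 genes in each library, in TMM-scaled CPM on a log axis; points are libraries, lines are group means, and open points are libraries below 0.04 CPM, drawn at that value. Il18r1 lies at 55.7 to 91.5 CPM and Il1rn at 382 to 755 CPM in thymic tuft cells, where Il18 is at 0.456 CPM or less.

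Among other IL-1 family cytokine genes, Il1rn, Il1f5, Il1f6 and Il1f9 were detected mainly in thymic tuft libraries, unlike Il1b. Of the 8 tested, Il18 and Il33 included, 4 were higher and 1 lower in thymic than in SI tuft cells, 6 higher and 2 lower in thymic tuft cells than in SI epithelium, and 1 higher and 2 lower in SI tuft cells than in the SI epithelium. The median log2 fold changes were 5.61 (4.41 with 3 genes at their lower bounds), 6.01 and -1.50. In the first comparison 28.5% of all genes were higher and 23.1% lower, in the second 28.6% and 22.3%, in the third 10.9% and 11.4%. The part in these counts of cells with the B cell and myeloid markers given with the receptors was not tested. Il1rn, which encodes the IL-1 receptor antagonist, was at 382, 546, 587 and 755 CPM in thymic tuft libraries 1 to 4, at 1.73, 2.07 and 0.713 CPM in SI tuft libraries 2 to 4, and at 4.35, 4.39 and 2.35 CPM in SI epithelium libraries 1 to 3. The groups did not overlap. Il1rn was higher in thymic tuft cells than in SI tuft cells (log2 fold change 8.56, edgeR adjusted p = 4.95e-08) and than in SI epithelium (7.27, adjusted p = 9.78e-08), where the value was 17.91 (adjusted p = 1.1e-07) when shared counts were removed. In SI tuft cells it was called lower than in SI epithelium (-1.29, adjusted p = 0.0266), and that sign turned to 9.22 (adjusted p = 7.83e-05) when counts shared from thymic libraries were removed, with an adjusted p of 7.83e-05 to 0.459 over the alternatives. That lower call held in 6 of the 10 fits that left out 1 library. At 17.91 and 9.22 SI epithelium would lie below the level of 3 counts per library, so these sizes are not measured folds.

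Il1f5, Il1f6 and Il1f9, which encode the IL-36 receptor antagonist, IL-36 alpha and IL-36 gamma, averaged 7.07 ± 2.01, 6.58 ± 4.11 and 5.78 ± 4.02 CPM in thymic tuft cells (SD, n = 4) and had no count in SI tuft cells. They were at least 86.6-fold, 80.6-fold and 70.8-fold higher in thymic than in SI tuft cells, with 3 counts per library as the limit, and all 3 were called (edgeR adjusted p = 0.00013, 0.000147 and 0.00013). In SI epithelium they were at most 0.0849 CPM. Medullary thymic epithelium markers moved with these genes: Krt5, a basal keratin, was at 565 to 690 CPM and Ivl, a gene of keratinizing epithelium, at 18.4 to 50.4 CPM in thymic tuft libraries, against at most 0.389 and 0.0272 CPM in SI tuft libraries. Their part was not tested. Il1a averaged 1.09, 0.169 and 0.117 CPM in thymic tuft, SI tuft and SI epithelium libraries, and Il1b 0.924, 1.78 and 0.0267 CPM. Their calls over SI epithelium had adjusted p of 0.0331 to 0.0395 and held in 4 or 5 of the 10 fits that left out 1 library. Il1f8 and Il1f10 were too low to be tested.

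Genes of inflammasomes and cytokine release, the machinery that cuts and releases IL-18 and IL-1, were mostly lower in thymic tuft cells. Of 22 tested, 3 were higher and 13 lower in thymic than in SI tuft cells, 2 higher and 14 lower in thymic tuft cells than in SI epithelium, and 3 higher and 3 lower in SI tuft cells than in the SI epithelium. The median log2 fold changes were -1.98, -2.02 and -0.37. Of all genes, 28.5% were higher and 23.1% lower in thymic than in SI tuft cells. The shares were 28.6% and 22.3% in thymic tuft cells against SI epithelium, and 10.9% and 11.4% in SI tuft cells against it. The enterocyte markers given with Il18 were also lower in thymic tuft libraries, and their part in these counts was not tested. Naip5, which encodes a flagellin sensor, averaged 9.53 ± 2.82 CPM in thymic tuft cells (SD, n = 4) and 403 ± 49.6 CPM in SI tuft cells (SD, n = 3; log2 fold change -5.40, edgeR adjusted p = 1.68e-08). Naip6, its near-identical neighbour, averaged 10.5 and 392 CPM (-5.21, edgeR adjusted p = 8.47e-08), and reads of these paralogs may be split between them. Nlrp6, an inflammasome sensor gene of intestinal epithelium, averaged 6.17 ± 3.40 CPM in thymic tuft (SD, n = 4), 190 ± 2.38 CPM in SI tuft and 217 ± 33.1 CPM in SI epithelium cells (SD, n = 3 each). It was lower in thymic tuft cells than in SI tuft cells (-4.95, edgeR adjusted p = 5.50e-07) and than in SI epithelium (-5.13, edgeR adjusted p = 4.54e-07). Nlrp9b, a sensor gene of the same family, was lower than in SI epithelium by a like amount (-4.94, edgeR adjusted p = 3.71e-06).

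The 3 genes that were higher in thymic than in SI tuft cells were Aim2, a cytosolic DNA sensor gene, Casp4 and Nlrp3. Aim2 averaged 24.7 ± 8.33 CPM in thymic tuft cells (SD, n = 4) and 1.11 ± 0.169 CPM in SI tuft cells (SD, n = 3; log2 fold change 4.48, edgeR adjusted p = 1.36e-05). Casp4, which encodes the mouse caspase-11 that senses lipopolysaccharide, averaged 115 ± 21.3, 7.97 ± 1.11 and 25.6 ± 3.02 CPM in thymic tuft, SI tuft and SI epithelium libraries (SD, n = 4, 3 and 3). Casp4 was higher in thymic tuft cells than in both SI groups (3.85, edgeR adjusted p = 7.24e-08, and 2.17, edgeR adjusted p = 3.38e-06) and lower in SI tuft cells than in the SI epithelium (-1.68, edgeR adjusted p = 0.000116). Nlrp3, an inflammasome sensor gene, was at 0.0329, 0.207, 0.520 and 2.70 CPM in thymic tuft libraries 1 to 4, against 0.0243, 0 and 0 CPM in SI tuft libraries 2 to 4. Its call at these low levels (6.32, edgeR adjusted p = 0.023) was lost without SI tuft library 2 (8.52, adjusted p = 0.0539), library 3 (5.87, adjusted p = 0.0877) or library 4 (5.86, adjusted p = 0.088). Casp1, whose product cuts IL-18, was at 40.4 to 57.9 CPM in thymic tuft, 60.0 to 69.0 CPM in SI tuft and 79.2 to 85.2 CPM in SI epithelium libraries. The groups did not overlap. Casp1 was lower in thymic tuft cells than in SI epithelium (-0.76, edgeR adjusted p = 0.00201), and not called there with library totals only (-0.15, adjusted p = 0.472). Thymic over SI tuft cells was not called (-0.41, edgeR adjusted p = 0.052), with a value of -0.50 (adjusted p = 0.0172) without thymic library 2 and of 0.49 (adjusted p = 0.0214) with library totals only. SI tuft cells over SI epithelium was not called either (-0.36, edgeR adjusted p = 0.174), but was with library totals only (-0.64, adjusted p = 0.0175) and in a fit of the 2 groups alone (-0.35, adjusted p = 0.0415). Pycard, the adaptor ASC, was lower in thymic than in SI tuft cells (-2.55, edgeR adjusted p = 1.50e-06) and lower in SI tuft cells than in the SI epithelium (-0.96, edgeR adjusted p = 0.0101). Gsdmd, which forms the release pore, averaged 27.9, 316 and 181 CPM in thymic tuft, SI tuft and SI epithelium libraries, and Gsdme, a related pore gene, 2.94, 10.9 and 53.0 CPM. Gsdme was lower in SI tuft cells than in the SI epithelium (-2.28, edgeR adjusted p = 0.000882), whereas the smaller Gsdmd and Naip5 differences in that comparison (0.81 and 0.97) lost their call in 5 and 1 of the 10 fits that left out 1 library.

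Of 22 genes that act downstream of IL-17 receptors, 9 were higher and 2 lower in thymic than in SI tuft cells, 10 higher and 4 lower in thymic tuft cells than in SI epithelium, and 4 higher and 3 lower in SI tuft cells than in the SI epithelium. The median log2 fold changes were 0.49, 0.31 and 0.06. Between thymic and SI tuft cells that is 11 of 22 genes in either direction, where 51.6% of all genes were called (28.5% higher and 23.1% lower). The shares of all genes were 28.6% and 22.3% in thymic tuft cells against SI epithelium, and 10.9% and 11.4% in SI tuft cells against it. With library totals only, 17 of the 22 were higher and 0 lower in thymic than in SI tuft cells. None of the 22 was then lower in thymic tuft cells than in SI epithelium. With DESeq2, 14 were higher and 1 lower in thymic than in SI tuft cells. Tnfaip3, which encodes the NF-kappaB inhibitor A20, was higher in each comparison at 208 ± 33.4 CPM in thymic tuft (SD, n = 4), 66.4 ± 3.50 CPM in SI tuft and 28.4 ± 5.26 CPM in SI epithelium cells (SD, n = 3 each). Its log2 fold changes were 1.64 for thymic over SI tuft cells, 2.87 for thymic tuft cells and 1.23 for SI tuft cells over SI epithelium (edgeR adjusted p = 1.12e-05, 1.82e-07 and 0.00048). Arid5a, an RNA-binding protein gene that stabilises IL-17 target transcripts, averaged 47.4 ± 12.3 CPM in thymic tuft cells (SD, n = 4) and 6.69 ± 1.32 CPM in SI tuft cells (SD, n = 3; log2 fold change 2.82, edgeR adjusted p = 2.62e-05). Cebpd, a transcription factor gene, was higher in thymic than in SI tuft cells by 2.72 (edgeR adjusted p = 0.00278). Traf5 was higher by 2.66 (adjusted p = 0.0139), with 54.3 CPM in thymic library 3 and 4.97 to 12.8 CPM in the others. Without that library the Traf5 value was 1.43 (adjusted p = 0.0556), and the call was also lost without SI tuft library 3 (2.37, adjusted p = 0.0602) or library 4 (2.57, adjusted p = 0.0521).

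Chuk, the gene of IKK-alpha, was lower in thymic than in SI tuft cells (-1.07, edgeR adjusted p = 0.000663), and Tbk1, a kinase gene, was lower by a smaller amount (-0.57, edgeR adjusted p = 0.0122). With library totals only these values were -0.16 (adjusted p = 0.496) and 0.33 (adjusted p = 0.124). Traf3ip2, which encodes the adaptor ACT1 that IL-17 receptors bind, averaged 34.6 ± 10.7 CPM in thymic tuft (SD, n = 4), 42.6 ± 3.92 CPM in SI tuft and 54.8 ± 8.92 CPM in SI epithelium cells (SD, n = 3 each). It was called lower in thymic tuft cells than in SI epithelium (-0.66, edgeR adjusted p = 0.0384). That call was kept in 8 of 20 alternatives, 6 of them among the 10 fits that left out 1 library, and was lost with library totals only (-0.04, adjusted p = 0.912), RLE size factors (-0.43, adjusted p = 0.161) and DESeq2 (-0.43, adjusted p = 0.171). In SI tuft cells Ikbke (-1.43, edgeR adjusted p = 0.00106) and Nfkbiz (-0.82, edgeR adjusted p = 0.00513), the gene of the inducible nuclear cofactor of NF-kappaB, were lower than in SI epithelium. Both calls held in all 10 fits that left out 1 library. The calls for Traf6 (-0.72), Nfkbia (0.98) and Zc3h12a (1.32), which encodes an RNase that limits IL-17 signalling, held in 5, 5 and 8 of them.

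Over the 10 libraries, the genes most like Il25 in profile were Tef, Il9r, Mn1, Dnajb2 and Sec14l1 (Pearson r 0.971 to 0.979 on log2(CPM + 1), among 12292 protein-coding genes of at least 5 CPM in a group). Those most like Il17rb were Vav1, Fbxl21, Trpm5, Ackr4 and Tuba1a (r 0.996 to 0.997), with Trpm5, the cation channel of taste signalling, at 1148 CPM in thymic and 5266 CPM in SI tuft cells. Those most like Il17ra were Slc2a1, Plekhs1, Grk3, Pnpla3 and Lima1 (r 0.980 to 0.992). Those most like Tslp were Shf, Csk, Gpr18, Ccdc28b and Oas1g (r 0.973 to 0.982), and after Lyz1 those most like Il33 were Tnfrsf21, Cct5, Nip7 and Nolc1 (r 0.961 to 0.964). The 10 libraries form 3 groups, so these values mostly describe the group means and carry no test.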

How the data were processed

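Gene counts of 10 libraries were used as the authors deposited them, 1 table per sample of 43432 Ensembl identifiers with no rows other than genes. Reads were aligned with STAR to GRCm38, per the submitters' processing notes, which also name DESeq2. The program that made the counts is not given in the sources used here. Per the labels' protocols, poly(A) RNA was amplified with NuGEN Ovation V2 and libraries were made with Nextera XT, which mark no strand. The 10 libraries came from 1 mouse each, so p-values measure the spread between mice. Whether libraries of different groups shared a mouse is not given in those sources.

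Symbols, coordinates and exonic lengths came from GENCODE M21 (GRCm38), which held 42548 of the identifiers. Genes passed edgeR's filterByExpr (minimum count 10, total 15), which left 19281. A quasi-likelihood test with TMM scaling (factors 0.661 to 1.43) was fitted over all 10 libraries with 1 mean per group, adjusted by Benjamini-Hochberg over all genes and called below 0.05 (edgeR 4.0.16, limma 3.58.1, R 4.3.3). TPM was computed from counts and exonic length and was not tested between groups. The thymic counts held by each SI epithelium library were estimated with non-negative least squares on 282 genes (2000 thymic counts or more and no more than 2 in SI tuft libraries, summed). For thymic libraries 1 to 3 the median ratio to the partner SI epithelium library over 11 genes was used. The edgeR fit and the estimate of thymic counts were each run on simulated data. For the estimate, each SI epithelium library was drawn from 1 thymic library, with no counts of its own for the chosen genes. The data held shares of several thymic libraries, so that run cannot show how accurate the shares are here. Standard errors come from the quasi-likelihood test and include the spread between libraries, while the limits of 3 counts cover counting error only.

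The 6 genes and the gene lists were chosen with earlier results of these data known. Named genes are the 6, all genes of 4 lists (IL-17 ligands, IL-17 receptors, receptors and binding proteins of IL-33, TSLP and IL-18, IL-1 family), up to 3 called genes in each direction of at least 10 CPM from the lists of IL-17 signalling and inflammasomes, the 5 genes most like each of the 6, and overlapping genes. Cell type markers fall outside that rule, as do Casp1 and Nlrp3, which were chosen after their values were seen. Some genes that the rule names are not reported here. Of the 15 IL-1 family symbols 10 were in the files, the others being newer names. Promoters came from RefSeq (GRCm38.p6) and were searched for 3 of the 6 genes. Il25 and Il17ra did not match. Windows on chromosome 18, where Tslp lies, were left out, so Tslp was not searched. Alternatives were RLE size factors in the edgeR fit, a separate DESeq2 1.42.0 fit with its Wald test, no mitochondrial genes and no filter. Others were 10 CPM in 3 libraries, 2 groups only, the replicate number as a block, removal of shared counts and of each library. Library totals only was chosen after seeing the data.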

Additional observations from a re-analysis of the deposited data

Results flagged for a closer look

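Dixon's test was applied to 28 genes in the group of 4 thymic tuft libraries at its 95% critical value for the gap over the range, which chance passes in about 1 of 20 groups. Il17rd was at 4.79 CPM in thymic tuft library 1, far above the other 3 libraries (gap over range 0.941). Il17rc was at 9.80 CPM in the same library, below the others (0.909). Il17d was at 3.16 CPM in thymic library 3, above the others (0.912). Il17b was at 0.570 CPM in thymic library 4, above the others (0.899).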

How the results depend on the processing

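Of 177 results of the 6 genes under settings other than leaving out a library, 171 kept their direction and side of the threshold, 2 with no test kept their direction with a moved value, 2 gained a call and 2 turned sign. Of 180 with 1 library left out, 177 kept both, 2 gained a call and 1 turned sign. The cause was not tested for any exception. With library totals only, thymic over SI tuft values were 0.54 for Il25, 0.56 for Il17ra and 1.06 for Il33, with 8822 genes higher and 2003 lower (5492 and 4453 with TMM). Thymic tuft over SI epithelium then had 7565 higher and 2460 lower (5514 and 4297), and SI tuft over SI epithelium 1537 higher and 3238 lower (2101 and 2199). In the same order of comparisons that scaling moved the median of all genes by 0.90, 0.62 and -0.28 (log2), DESeq2 by 0.32, 0.39 and 0.08 and RLE size factors by 0.24 and 0.23 in the first pair. With only the 2 groups, SI tuft over SI epithelium had 6988 genes called (3475 higher, 3513 lower) and Il18 was at 0.64. Removal of shared counts gave 7.83 for Il25 in thymic and 8.08 in SI tuft cells over SI epithelium, whose libraries then held 1, 0 and 16 Il25 counts. With 10 CPM in 3 libraries, where Tslp was not tested, 6598 genes were called and 3289 higher for thymic over SI tuft cells, and 3536 higher for thymic tuft over SI epithelium.

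Whether same-numbered libraries came from the same mouse is not given in the sources used here. Same-numbered libraries had deviations correlated at -0.0634 to 0.0707, and most libraries correlated best with another number. These correlations cannot decide whether the numbers pair libraries. Deviations within such small groups nearly cancel, which forces the correlations of a library with another group to nearly cancel too. With the replicate block, thymic over SI tuft cells had 6602 genes called and 2552 lower, against 2826 lower in the same libraries with no block, and no call of the 6 genes changed.

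With 1 library left out, values for SI tuft over SI epithelium were 1.57 to 1.78 for Il17ra, 5.87 to 6.23 for Il17rb, 0.53 to 0.73 for Il18, 6.21 to 7.04 for Il25, -2.04 to -1.53 for Il33 and 5.53 to 6.37 for Tslp. For thymic over SI tuft cells they were -0.44 to -0.23, -1.75 to -1.56, -7.38 to -6.65, -0.69 to -0.10, -8.91e-05 to 0.50 and -1.59 to -1.01 in that gene order. Called genes numbered 2888 to 5270 (1462 to 2516 higher, 1426 to 2754 lower) for SI tuft over SI epithelium, and 14 to 24 list genes were called there. Depth limits Il25 and Tslp in SI epithelium and Il18 in thymic tuft cells, each at 31 counts or fewer per library.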
